A study of Drosophila melanogaster with 18 samples.

Results

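The transcripts of newly eclosed Drosophila melanogaster ovaries were compared between females in which baf was knocked down in germ cells (baf GLKD) and females that carried only the germline driver (nosgal4). The comparison covered 4 of the 18 libraries of the series, 2 baf GLKD and 2 nosgal4, chosen by the genotype that the labels give. All genes with at least 10 counts over the 18 libraries were tested, which left 12762 of 14237 genes. The baf GLKD females carried the nos>gal4VP16 driver, which uses the nanos promoter to make the yeast activator Gal4 in germ cells, together with a responder transgene of the TRiP collection that makes a short hairpin RNA against baf. The nosgal4 females carried the driver without the responder, in a white mutant background, while the responder stock also carried mutations in yellow, scute, vermilion and sevenless. Any effect of the responder's genetic background therefore cannot be told apart from that of the knockdown. The labels give 25 °C for the baf GLKD flies and room temperature for the nosgal4 flies, whereas the methods of the study give 1 temperature for all crosses, so a difference in rearing between the groups cannot be told apart from the genotype either. The other 14 libraries came from 2 wild-type strains (4 Canton S, written CS, and 3 yw), 4 emerin mutants of 2 allele combinations (2 G/PI and 2 G/PK, taken as 1 group here) and 3 chk2, emerin double mutants, and served to measure the spread between samples and to place the values. The yw reference strain is mutant in yellow and white, and the study gives the emerin alleles a yw background.

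Barrier-to-autointegration factor (BAF, encoded by baf) is a small chromatin protein that binds DNA and the LEM-domain proteins of the nuclear envelope, such as emerin and MAN1, and helps to join chromatin to the nuclear lamina. In the ovary, germline stem cells lie at the tip of each germarium, next to somatic cap cells that send them BMP signals, and their daughters are wrapped by escort cells as they develop into germline cysts. Ovaries of newly eclosed females hold early germline cysts and follicles, somatic cells of the germarium, and the muscle sheath, tracheae and blood cells attached to the tissue. The knockdown acts in the germ cells, while the RNA was taken from whole ovaries.

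Each library was made from polyadenylated RNA of about 100 pairs of hand-dissected ovaries, and its gene table held estimated read counts. The baf GLKD libraries held 23231858 and 19734656 counts and the nosgal4 libraries 26390246 and 22804959, within the 18138657 to 28372959 counts of all 18. The study describes replicates as independent RNA isolates. Counts of the 2 replicates differed by far more than sampling noise in both groups (chi-square per degree of freedom 64.6 in baf GLKD and 138.3 in nosgal4), so every library was counted as 1 sample. Levels are given as CPM, counts scaled to a library total of 1000000 after TMM normalization, which corrects library size for the composition of the RNA. Changes are log2 fold changes of baf GLKD over nosgal4 with their standard error (SE), from edgeR's quasi-likelihood test fitted to all 18 libraries, and a gene was called higher or lower where its p, adjusted over all 12762 genes by the Benjamini-Hochberg method, was under 0.05. With 2 libraries against 2, an exact two-sided permutation test of a single gene could not give a p below 0.333, so the calls rest on the spread shared with the other groups. Germ cell markers were well above the floor in every library (vas at 252 and 255 CPM in baf GLKD, against 665 and 584 CPM in nosgal4), and markers of mature sperm cells were near 0 (Mst87F at 1.82 and 0.237 CPM in baf GLKD, against 0.0802 and 0.0886 CPM in nosgal4).

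The targeted gene gave a limited check of the knockdown. The baf transcript (FBgn0031977, chromosome 2L, positions 8029462 to 8030565 of the Release 6 assembly, plus strand) stood at 66.4 and 72.5 CPM in baf GLKD, against 86.0 and 110.0 CPM in nosgal4, and at 83.2 to 195 CPM in the 7 CS and yw libraries. Both baf GLKD values lay below those of all 9 nosgal4, CS and yw libraries. Levels as low also occurred without the hairpin, at 51.6, 75.1 and 74.7 CPM in the chk2, emerin libraries. The emerin libraries had 76.8 to 96.6 CPM. The log2 change of −0.50 ± 0.31 (SE) did not pass the test (adjusted p = 0.261). In the deposited transcript tables the shorter isoform, baf-RA, had 149 and 175 TPM in baf GLKD (the same scale after division by transcript length), against 197 and 231 TPM in nosgal4, and baf-RB had 7.01 and 11.1 TPM in baf GLKD, against 6.98 and 12.2 TPM in nosgal4. With each library's trend of counts against gene length removed, the change of baf was −0.45 and passed the test (adjusted p = 0.0163), while in every other alternative run it did not pass (adjusted p 0.104 to 0.636). Whole-ovary RNA also includes the baf transcripts of somatic cells, which the nanos driver is not meant to reach.

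Of the 12762 genes, 1692 (13.3%) were higher and 1057 (8.28%) were lower in baf GLKD, 21.5% in all. The median log2 change was 2.26 among the higher genes and −0.76 among the lower genes, against 0.11 over all genes tested, and a change of at least 2-fold was reached by 1538 called genes (12.1% of genes tested) among the higher and 172 (1.35%) among the lower. The nosgal4 level is also the denominator of the change, and scarce genes pass the test only with large changes, so the next counts are a description. Among 1966 genes with a nosgal4 mean of 1 to 10 CPM, 679 (34.5%) were higher and 16 lower, while among 1964 genes at 100 CPM or more, 76 (3.87%) were higher and 509 (25.9%) lower. The number of calls depended on single libraries. Leaving out 1 library gave 860 higher and 82 lower genes when it was baf GLKD replicate 1, 1215 and 442 when it was baf GLKD replicate 2, 934 and 234 when it was nosgal4 replicate 1, and 623 and 338 when it was nosgal4 replicate 2. The library that remains in such a group is assumed to vary like the other groups. In each of these fits 507 higher genes (3.97% of genes tested) and 50 lower genes (0.392%) were called. Scaling mattered for the lower genes: with library size alone the median of all genes shifted to 0.29 and 1819 genes were higher and 444 lower.

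**Figure D1:**
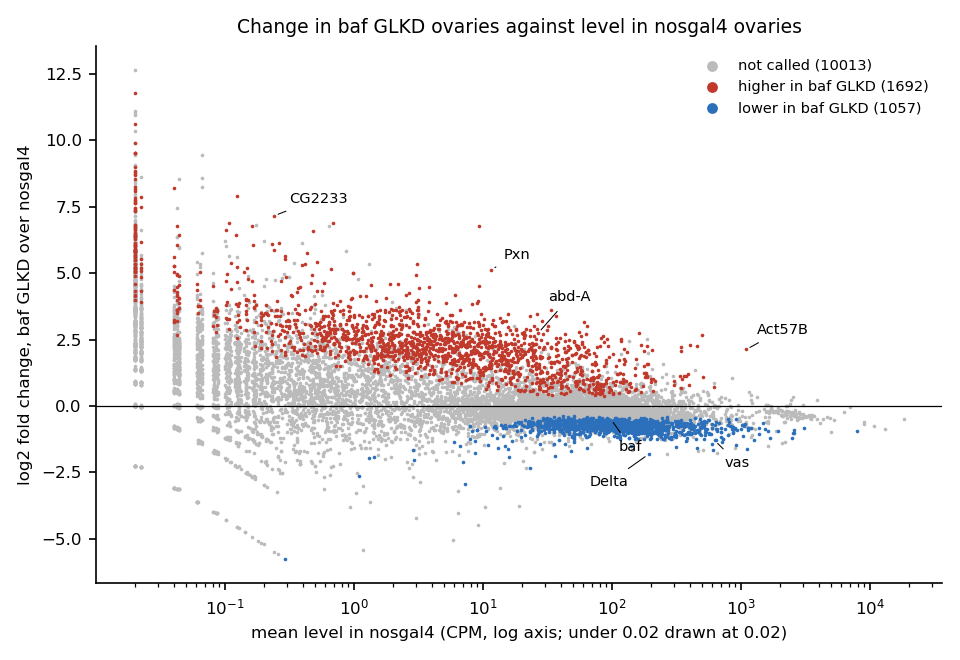
Log2 change of baf GLKD over nosgal4 (vertical axis) against the mean nosgal4 level in CPM on a log axis (horizontal), 1 point per gene tested, with genes under 0.02 CPM drawn at 0.02. The 1692 higher genes lie mostly at low nosgal4 levels and spread upward, and the 1057 lower genes lie at higher levels, closer to the line of no change.

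The replicates formed 2 pairs of libraries that differ in the totals of their files, for a reason not given in the sources used here: replicate 1 of each group belongs to a set of libraries whose deposited transcript tables hold 7.42 to 18.87 times fewer counts than the gene table, and replicate 2 of each group to the set in which both agree. Taken within each set, as differences of log2(CPM + 0.5), the 1692 higher genes had a median difference of 1.82 between the replicate 1 libraries and 1.95 between the replicate 2 libraries, and the 1057 lower genes −0.85 and −0.66. These genes were called from the same 4 libraries, so the counts that follow describe the calls and are no independent check of them. The sign was the same in both sets for 1690 of the higher genes and for all 1057 lower genes. Both baf GLKD libraries were above both nosgal4 libraries in 1688 of the higher genes, as in 34.1% of all genes tested, and below both in all 1057 lower genes, as in 30.7% of all genes tested. Beyond the driver control, 1435 of the higher genes (84.8%) were above all 9 nosgal4, CS and yw libraries in both baf GLKD libraries, as were 18% of all genes tested, and 763 of the lower genes (72.2%) were below all 9, as were 12.3% of all genes tested. Across the 500 most variable genes, the main axis of variation (65.4% of the variance) placed the baf GLKD libraries at 25.9 and 12.9, the nosgal4 libraries at −20.2 and −31.7, the CS and yw libraries between −23.6 and −1.52, and the emerin libraries between 32.0 and 46.0.

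**Figure D2:**
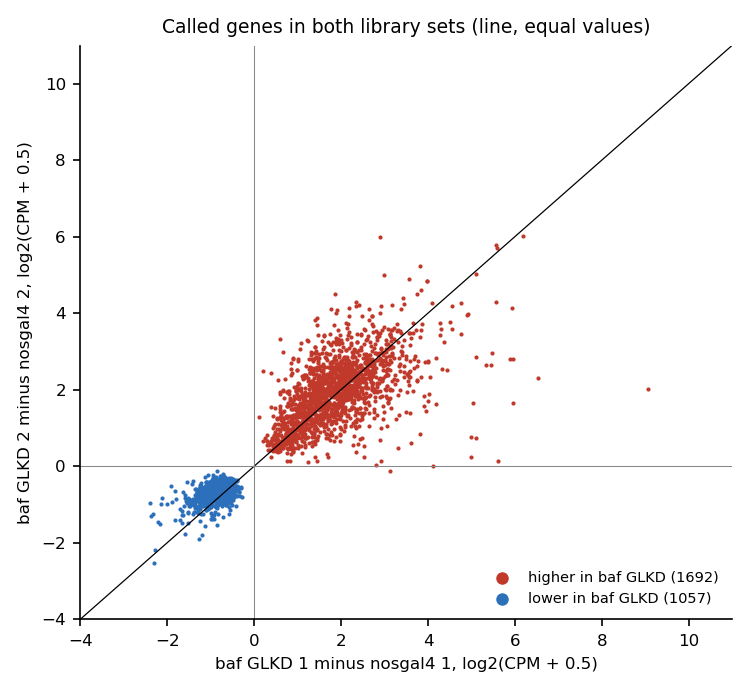
Difference of baf GLKD and nosgal4 replicate 1 (horizontal) against that of replicate 2 (vertical), both in log2(CPM + 0.5), for the called genes, with the line of equality. Most points fall in the quadrant where both differences are positive or in the one where both are negative.

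All 54 gene lists used from here on were chosen with earlier results of these data known. Their counts and medians are therefore a description and no independent test. Over all genes tested, 13.3% were called higher and 8.28% lower, the shares to set beside each list's counts. Genes that mark germ cells were lower, though not evenly so. Of 20 germline identity genes tested, 5 fell (vas, aub, mei-P26, tral and stil) and none rose, with a median of −0.75. vas, which encodes the germ granule helicase Vasa, had 252 and 255 CPM in baf GLKD, against 665 and 584 CPM in nosgal4 and 419 to 604 CPM in CS and yw, a change of −1.30 ± 0.25 (adjusted p = 0.00282), called also without each of the 4 libraries. Its values in baf GLKD lay below every driver and wild-type library. mei-P26, a translational regulator of cyst differentiation, had 121 and 178 CPM in baf GLKD, against 425 and 323 CPM in nosgal4 (adjusted p = 0.00944, and 0.109 without baf GLKD replicate 1). nanos, the translational repressor that keeps germline stem cells and the gene whose promoter drives Gal4, had 70.7 and 58.2 CPM in baf GLKD, against 103 and 119 CPM in nosgal4, and did not pass the test (−0.78 ± 0.37, adjusted p = 0.141). The differentiation factor bam stood at 13.1 and 13.9 CPM in baf GLKD, against 19.9 and 24.5 CPM in nosgal4 (adjusted p = 0.354), and the germline gap junction gene zpg at 130.5 and 145 CPM in baf GLKD, against 217.8 and 295 CPM in nosgal4 (adjusted p = 0.197). Summed over the 20 genes, the level was 3943 and 4150 CPM in baf GLKD, against 7680 and 6701 CPM in nosgal4, 4469 to 7108 CPM in CS and yw, and 1947 to 2859 CPM in the emerin mutants. The count of 5 became 1, 2, 1 and 2 when baf GLKD replicates 1 and 2 and nosgal4 replicates 1 and 2 were left out in turn. In such bulk samples, fewer germ cells and less of a transcript per germ cell cannot be told apart.

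**Figure D3:**
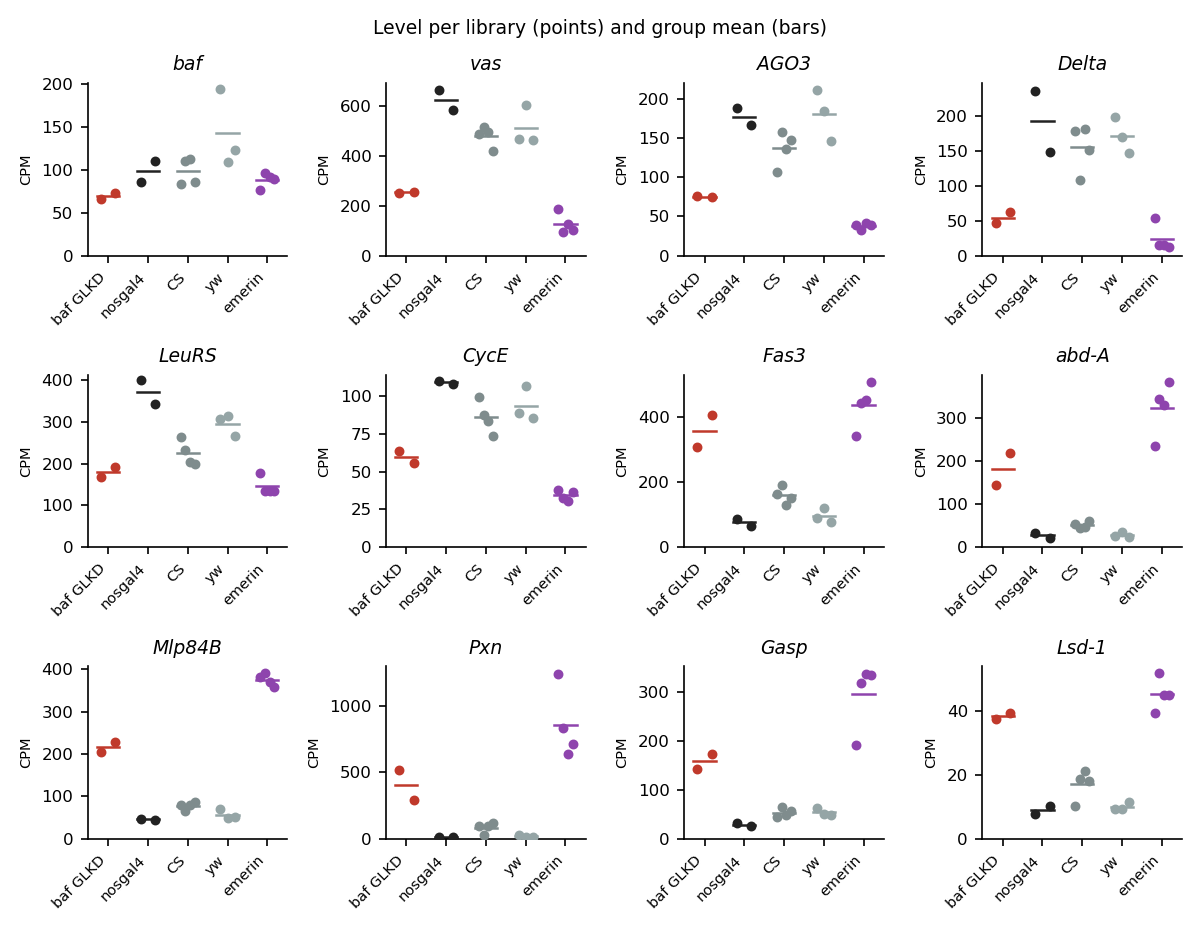
Level in CPM (vertical axes, from 0) of 12 genes in each library of baf GLKD, nosgal4, CS, yw and emerin, with 1 point per library and a bar at the group mean. vas and AGO3 lie lower in both baf GLKD libraries than in every nosgal4, CS and yw library, while abd-A, Mlp84B, Gasp and Pxn lie higher.

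The piRNA pathway silences transposons in the ovary, and many of its genes were lower in baf GLKD. All but 1 of its 30 genes tested had a negative change, 16 fell (against 8.28% of all genes tested) and none rose, the median was −0.70, and in 20 genes both baf GLKD libraries were below all 9 nosgal4, CS and yw libraries (against 12.3% of all genes tested). Each of the 3 Piwi-family proteins that carry piRNAs fell. AGO3 had 75.9 and 74.3 CPM in baf GLKD, against 188 and 167 CPM in nosgal4 (−1.24 ± 0.24, adjusted p = 0.00272, called also without each of the 4 libraries). aub had 114 and 125 CPM in baf GLKD, against 280.3 and 294 CPM in nosgal4 (−1.26 ± 0.36, adjusted p = 0.0213), and piwi, which acts in germ cells and in somatic cells, 236 and 272 CPM in baf GLKD, against 421 and 423 CPM in nosgal4 (−0.73 ± 0.21, adjusted p = 0.0192). Both of these calls ended without any 1 of the 4 libraries, with adjusted p from 0.0635 to 0.16. Among the genes that make piRNA precursors, rhi, the heterochromatin protein of germline piRNA clusters, changed by −1.43 ± 0.44 (adjusted p = 0.0292), and del by −0.94 ± 0.29 (adjusted p = 0.0317). Both calls ended in the same way, with adjusted p from 0.0772 to 0.144. Among processing factors, zuc, the endonuclease that phases piRNAs, had 16.4 and 18.5 CPM in baf GLKD, against 29.9 and 35.1 CPM in nosgal4 (adjusted p = 0.0049, and 0.0575 and 0.0539 without baf GLKD replicate 1 and nosgal4 replicate 2), and mael had 52.5 and 63.7 CPM in baf GLKD, against 108 and 137 CPM in nosgal4 (adjusted p = 0.00792, and 0.0788 and 0.0734 without the same libraries). The count of 16 became 1, 7, 8 and 2 when baf GLKD replicates 1 and 2 and nosgal4 replicates 1 and 2 were left out in turn, and 10 with library size alone.

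Genes of the oocyte followed the same direction with a wider spread. The share lower over all genes tested was 8.28%. Of 22 genes of oocyte determination and mRNA localization, 9 fell and none rose (median −0.82), among them BicD, a dynein adaptor that carries mRNAs into the oocyte, at 147 and 131 CPM in baf GLKD, against 241 and 216 CPM in nosgal4 (−0.72 ± 0.19, adjusted p = 0.0161), and sqd, which localizes gurken mRNA, at 992 and 1184 CPM in baf GLKD, against 2981 and 1988 CPM in nosgal4 (−1.19 ± 0.27, adjusted p = 0.00627). osk, the organizer of the germ plasm, showed a difference of similar size that did not pass the test: 744 and 812 CPM in baf GLKD, against 2068 and 2074 CPM in nosgal4 (−1.41 ± 0.75, adjusted p = 0.191). The fit shares its estimate of spread over all groups, and osk ran from 68.3 to 823 CPM within the emerin mutants alone. grk, the oocyte's EGF receptor ligand, had 35.5 and 52.7 CPM in baf GLKD, against 38.0 and 59.3 CPM in nosgal4 (−0.14 ± 0.22). The count of 9 became 0, 3, 1 and 2 with baf GLKD replicates 1 and 2 and nosgal4 replicates 1 and 2 left out, and 4 with library size alone. The BicD call ended without any 1 of the 4 libraries (adjusted p 0.0518 to 0.109), and the sqd call without either replicate 1 (0.0738 and 0.0735).

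Among 23 genes of meiotic recombination and synapsis, 6 fell (against 8.28% of all genes tested) and none rose (median −0.59). Of 15 recombination and repair genes 5 fell (median −0.65), led by okr, the fly RAD54, at 16.6 and 21.0 CPM in baf GLKD, against 35.4 and 32.8 CPM in nosgal4 (−0.86 ± 0.21, adjusted p = 0.00921, and 0.0986 and 0.058 without baf GLKD replicate 1 and nosgal4 replicate 1). Of 8 genes of the synaptonemal complex and cohesion 1 fell, c(3)G, the transverse filament, at 28.2 and 30.4 CPM in baf GLKD, against 57.4 and 50.1 CPM in nosgal4 (adjusted p = 0.0328, and 0.0827 to 0.178 without 1 of the 4 libraries), while the median of the 8 was −0.05. The complex member corolla had 14.03 and 10.5 CPM in baf GLKD, against 8.22 and 6.91 CPM in nosgal4, and ord, a cohesion protein, 4.88 and 4.65 CPM in baf GLKD, against 2.13 and 3.72 CPM in nosgal4. Neither passed the test (adjusted p 0.336 and 0.315). The count of 6 became 0, 1, 0 and 1 when baf GLKD replicates 1 and 2 and nosgal4 replicates 1 and 2 were left out in turn. Of 17 genes of the fusome and ring canals, which link the cells of a germline cyst, 1 rose (tmod) and none fell, with a median of −0.07. hts, which encodes the fusome adducin and is also expressed in somatic cells, had 356 and 435 CPM in baf GLKD, against 435 and 397 CPM in nosgal4.

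Lists of growth and division genes had members that fell and few or none that rose. Over all genes tested, 8.28% were lower. The lists of aminoacyl-tRNA synthetases, DNA replication, nucleotide excision repair and RNA degradation are also pathways that the study itself chose on these same samples. For that reason too, their direction is not independent evidence. All 36 aminoacyl-tRNA synthetases, which charge tRNAs for translation, had a negative change and 28 fell (median −0.70), 19 of 20 cytosolic enzymes (median −0.77) and 9 of 16 mitochondrial ones (median −0.50). CysRS had 76.5 and 86.5 CPM in baf GLKD, against 159 and 145 CPM in nosgal4 (−0.90 ± 0.18, adjusted p = 0.00348), and ValRS 128 and 147 CPM in baf GLKD, against 278 and 237 CPM in nosgal4 (−0.91 ± 0.20, adjusted p = 0.00507). Both were called also without each of the 4 libraries. The nosgal4 values exceeded those of CS and yw for CysRS (108 to 140.2 CPM) and ValRS (146 to 215 CPM), and the summed level of the 36 enzymes was 3605 and 4048 CPM in baf GLKD, against 6764 and 6164 CPM in nosgal4 and 4340 to 5754 CPM in CS and yw. Part of the difference thus lay between the driver control and the wild-type strains. The count of 28 became 3, 13, 6 and 10 when baf GLKD replicates 1 and 2 and nosgal4 replicates 1 and 2 were left out in turn, and 11 with library size alone.

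Of 44 DNA replication genes, 43 had a negative change and 20 fell, against 8.28% of all genes tested (median −0.61). Mcm2, a subunit of the replicative helicase, had 83.8 and 82.2 CPM in baf GLKD, against 177 and 162 CPM in nosgal4 and 127 to 188 CPM in CS and yw (−1.03 ± 0.23, adjusted p = 0.00625, and 0.0507 without baf GLKD replicate 1). Both baf GLKD libraries were below all 9 nosgal4, CS and yw libraries in 32 of the 44 genes, against 12.3% of all genes tested. Nucleotide excision repair had 10 of 18 genes lower and none higher (median −0.58), led by pic, which encodes the DNA damage sensor DDB1, at 182 and 211 CPM in baf GLKD, against 394 and 375 CPM in nosgal4 (−0.97 ± 0.17, adjusted p = 0.00107, called also without each of the 4 libraries). RNA degradation had 10 of 29 genes lower and none higher (median −0.65), led by the nuclear exosome helicase Mtr4 at 97.1 and 97.1 CPM in baf GLKD, against 209 and 184 CPM in nosgal4 (−1.02 ± 0.22, adjusted p = 0.00508, called also without each of the 4 libraries). Leaving out baf GLKD replicates 1 and 2 and nosgal4 replicates 1 and 2 in turn gave 2, 6, 8 and 5 lower genes for replication, 1, 6, 5 and 4 for excision repair, and 1, 5, 1 and 3 for RNA degradation, and library size alone gave 5, 6 and 6.

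All 27 cell cycle genes had a negative change and 13 fell, against 8.28% of all genes tested (median −0.53). CycE, which drives entry into S phase, had 63.6 and 55.6 CPM in baf GLKD, against 110.5 and 108 CPM in nosgal4 and 73.4 to 107 CPM in CS and yw (−0.87 ± 0.16, adjusted p = 0.00204, called also without each of the 4 libraries). The mitotic cyclin CycB had 562 and 575 CPM in baf GLKD, against 1231 and 1197 CPM in nosgal4, and did not pass the test (−1.10 ± 0.50, adjusted p = 0.127). The 13 calls became 1, 6, 4 and 2 with baf GLKD replicates 1 and 2 and nosgal4 replicates 1 and 2 left out, and 4 with library size alone. Of 34 translation factors 11 fell and none rose (median −0.50), and leaving out the same libraries gave 0, 9, 3 and 5. None of 86 cytosolic ribosomal proteins was called by edgeR (DESeq2 called 2 higher, and the unadjusted p of edgeR was under 0.05 for 2 higher and 2 lower genes), with a median of −0.27 and a summed level of 162820 and 166890 CPM in baf GLKD, against 179650 and 225700 CPM in nosgal4. Of 73 mitochondrial ribosomal proteins 11 fell (median −0.47, all 73 negative), against 8.28% of all genes tested, and the 11 became 0, 5, 3 and 0 without baf GLKD replicates 1 and 2 and nosgal4 replicates 1 and 2, and 2 with library size alone. Calls were few in 2 other lists: of 44 proteasome genes 1 fell (Rpn2, median −0.15) and of 92 oxidative phosphorylation genes none, where 1 rose (ATPsynepsilonL, median 0.18).

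**Figure D4:**
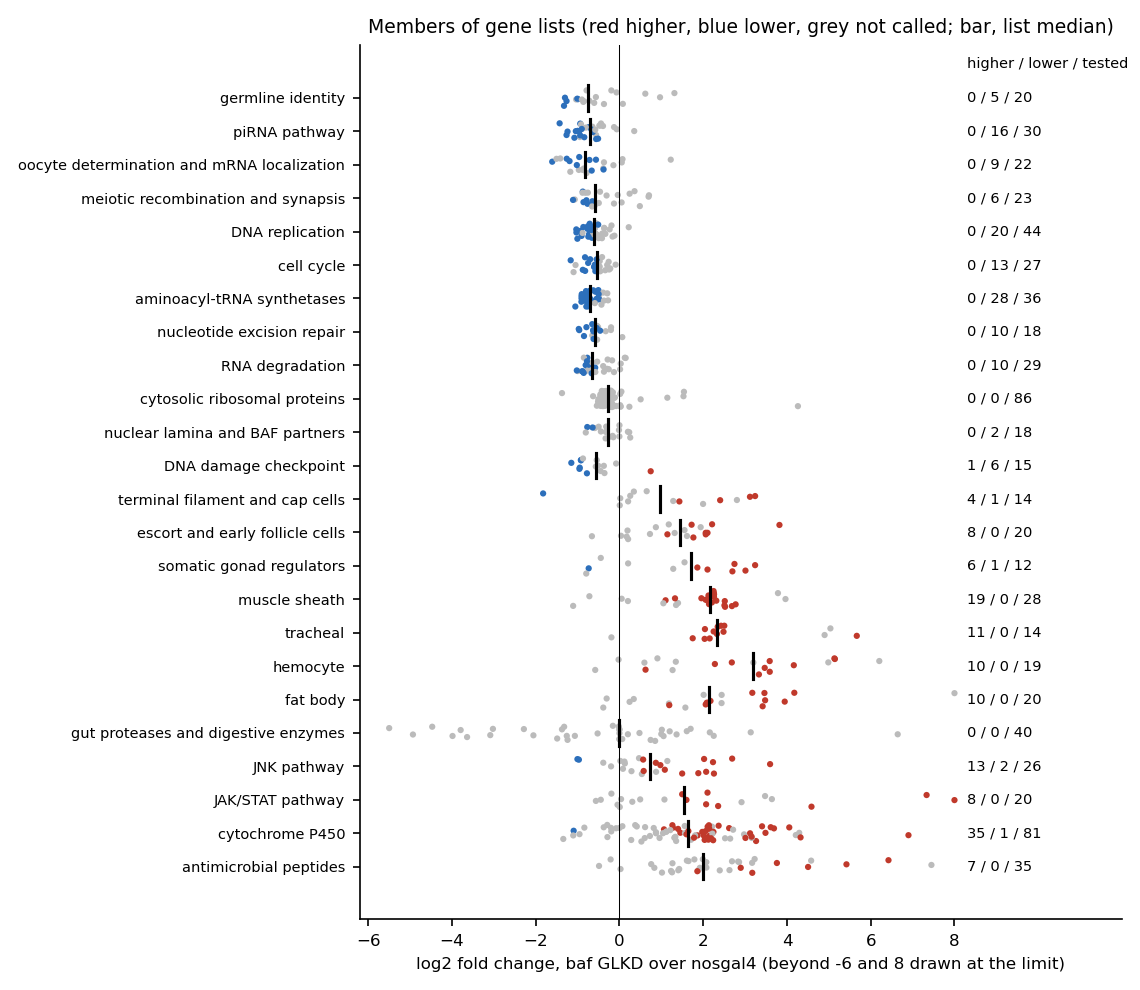
Log2 change of baf GLKD over nosgal4 for the tested members of 24 gene lists, 1 point per gene, with a bar at the list's median and the numbers higher, lower and tested at the right, where values beyond −6 and 8 are drawn at the limit. Lists of germ cells, growth and division sit left of 0, 9 of them with medians from −0.82 to −0.53, and lists of muscle, tracheal, blood and fat body cells sit right of 0, with medians from 2.13 to 3.20.

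Genes of somatic cells of the germarium gave the opposite picture. CPM is a share of each library's RNA. A larger share of somatic RNA and more transcript per somatic cell cannot be told apart in such bulk samples. The same limit holds for the somatic genes and signalling pathways that follow. Of 20 genes of escort and early follicle cells 8 rose (against 13.3% of all genes tested) and none fell (median 1.44). Fas3, an adhesion protein of follicle cells, had 308 and 404 CPM in baf GLKD, against 87.7 and 66.1 CPM in nosgal4 and 77.9 to 191 CPM in CS and yw (2.21 ± 0.35, adjusted p = 0.000518). drl, a Wnt receptor tyrosine kinase, had 86.2 and 145 CPM in baf GLKD, against 9.06 and 7.31 CPM in nosgal4 and 11.97 to 44.3 CPM in CS and yw (3.82 ± 0.58, adjusted p = 0.000444). Both were called also without each of the 4 libraries. The FGF receptor gene htl, known from muscle and other mesoderm, was also on the list and rose (89.1 and 71.3 CPM in baf GLKD, against 26.9 and 21.7 CPM in nosgal4). tj, a transcription factor of escort and follicle cells, had 115 and 107 CPM in baf GLKD, against 124 and 67.9 CPM in nosgal4 (0.21 ± 0.51, adjusted p = 0.801), and Egfr had 82.9 and 107 CPM in baf GLKD, against 97.1 and 88.1 CPM in nosgal4 (adjusted p = 0.949), so the list did not move as a block. Its summed level was 2552 and 3104 CPM in baf GLKD, against 1644 and 1166 CPM in nosgal4 and 1214 to 2177 CPM in CS and yw. The 8 calls became 5, 3, 5 and 3 without baf GLKD replicates 1 and 2 and nosgal4 replicates 1 and 2.

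The niche at the tip of the germarium included genes on either side of 0. The shares over all genes tested were 13.3% higher and 8.28% lower. Of 14 genes of terminal filament and cap cells 4 rose (bab2, dpp, inv and hh), 1 fell (Delta), and 13 had a positive change (median 0.97). The 14 genes summed to 623 and 787 CPM in baf GLKD, against 754 and 480 CPM in nosgal4. Both baf GLKD sums lay within the 527 to 853 CPM of CS and yw. bab2, a transcription factor of the terminal filament, had 45.1 and 43.1 CPM in baf GLKD, against 6.38 and 2.92 CPM in nosgal4 and 5.74 to 32.9 CPM in CS and yw (3.24 ± 0.72, adjusted p = 0.00624, and 0.0757 without nosgal4 replicate 2). dpp, the BMP ligand on which germline stem cells depend, had 51.1 and 67.6 CPM in baf GLKD, against 16.5 and 5.85 CPM in nosgal4 and 7.49 to 29.5 CPM in CS and yw (2.40 ± 0.55, adjusted p = 0.00736, and 0.0837 without nosgal4 replicate 2). Delta, a Notch ligand made by germ cells as well as by the niche, had 46.1 and 62.4 CPM in baf GLKD, against 236 and 148 CPM in nosgal4 and 108 to 198 CPM in CS and yw. Its change of −1.82 ± 0.53 (adjusted p = 0.0229) was among the largest falls, and the call ended without baf GLKD replicate 1, baf GLKD replicate 2 or nosgal4 replicate 1 (adjusted p 0.153, 0.0644 and 0.132). The 4 calls became 3, 2, 2 and 0 without baf GLKD replicates 1 and 2 and nosgal4 replicates 1 and 2.

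Some regulators of somatic gonad identity rose too, while their summed level stayed within the wild-type range. It was 1057 and 1289 CPM in baf GLKD, against 857 and 732 CPM in nosgal4 and 827 to 1361 CPM in CS and yw. Of 12 such genes 6 rose and 1, piwi, fell (median 1.71), and the count of higher genes was 5, 5, 5 and 3 without baf GLKD replicates 1 and 2 and nosgal4 replicates 1 and 2. so, a Six-family transcription factor of the somatic gonad, had 37.9 and 64.2 CPM in baf GLKD, against 8.303 and 4.34 CPM in nosgal4 and 6.01 to 22.2 CPM in CS and yw (3.01 ± 0.57, adjusted p = 0.00236). Hox genes set the segment of origin of somatic cells, and 4 of 9 rose while none fell (4, 3, 4 and 3 without the same libraries). abd-A had 143 and 217.3 CPM in baf GLKD, against 32.2 and 21.4 CPM in nosgal4 and 24.1 to 61.3 CPM in CS and yw (2.75 ± 0.42, adjusted p = 0.000475). Abd-B had 18.9 and 20.2 CPM in baf GLKD, against 3.97 and 2.04 CPM in nosgal4 and 2.23 to 4.51 CPM in CS and yw (2.70 ± 0.40, adjusted p = 0.000336). Antp, a Hox gene of the thorax, had 37.6 and 50.5 CPM in baf GLKD, against 11.8 and 6.603 CPM in nosgal4 (2.26 ± 0.40, adjusted p = 0.00128). For so and these 3 Hox genes both baf GLKD libraries exceeded every nosgal4, CS and yw library and the call held without each of the 4 libraries. Scr, a Hox gene of the head, was at 0.0387 and 0 CPM in baf GLKD, against 0.0802 and 0.0443 CPM in nosgal4.

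Muscle genes rose by similar amounts. Of 28 genes of the muscle sheath, the contractile layer that wraps ovarioles, 19 rose (against 13.3% of all genes tested) and none fell (median 2.17), 14 of them also without each of the 4 libraries, and in 20 genes both baf GLKD libraries exceeded all 9 nosgal4, CS and yw libraries (against 18% of all genes tested). Mlp84B, a Z-disc protein, had 204 and 229 CPM in baf GLKD, against 47.0 and 43.7 CPM in nosgal4 and 48.8 to 85.2 CPM in CS and yw (2.25 ± 0.23, adjusted p = 2.16e-05). Tm2, a tropomyosin, had 798 and 864 CPM in baf GLKD, against 176 and 159 CPM in nosgal4 (2.31 ± 0.29), and TpnC73F, a troponin C, 583 and 755 CPM in baf GLKD, against 116 and 118 CPM in nosgal4 (2.52 ± 0.31). The larval and visceral actin gene Act57B had 4061 and 5529 CPM in baf GLKD, against 1014 and 1182 CPM in nosgal4 (2.13 ± 0.31, adjusted p = 0.000325). Neither of 2 genes picked for flight and tubular muscle was called, while others used in those muscles, such as Mhc and up, rose. fln, a flight muscle protein, had 9.03 and 4.56 CPM in baf GLKD, against 29.2 and 0.0886 CPM in nosgal4 (adjusted p = 0.74), and Act79B, the actin of tubular muscle, 13.6 and 3.04 CPM in baf GLKD, against 0.963 and 0.222 CPM in nosgal4 (adjusted p = 0.264). The summed level of the 28 genes was 20613 and 23731 CPM in baf GLKD, against 6338 and 4631 CPM in nosgal4, 5255 to 10763 CPM in CS and yw, and 38345 to 44465 CPM in the emerin mutants. The 19 calls became 16, 17, 19 and 15 without baf GLKD replicates 1 and 2 and nosgal4 replicates 1 and 2.

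Tracheal genes, which mark the air-conducting tubes that enter the ovary, rose too, with a median close to that of the muscle genes. Of 14 genes tested 11 rose and none fell (median 2.34), with 7, 8, 8 and 5 calls without baf GLKD replicates 1 and 2 and nosgal4 replicates 1 and 2. Gasp, a chitin-binding protein of the tracheal lumen, had 143 and 173 CPM in baf GLKD, against 31.0 and 25.3 CPM in nosgal4 and 44.2 to 63.6 CPM in CS and yw (2.48 ± 0.26, adjusted p = 2.7e-05). pio, a protein of the apical matrix of tracheal cells, had 91.2 and 109 CPM in baf GLKD, against 17.97 and 19.3 CPM in nosgal4 (2.43 ± 0.24, adjusted p = 2.08e-05), and btl, the FGF receptor of tracheal cells, 32.9 and 37.4 CPM in baf GLKD, against 8.86 and 5.89 CPM in nosgal4 (2.25 ± 0.28, adjusted p = 0.000112). All of these were called also without each of the 4 libraries. The summed level of the list was 540 and 626 CPM in baf GLKD, against 167 and 115 CPM in nosgal4, 156 to 291 CPM in CS and yw, and 671 to 1017 CPM in the emerin mutants.

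Blood cell genes had a larger median change in the fit than muscle or tracheal genes, but were less even between libraries. Within the library sets the order was reversed. There the median difference, taken as for the called genes, was 1.41 between the replicate 1 libraries and 1.53 between the replicate 2 libraries. It was 1.97 and 2.32 for muscle genes, and 1.64 and 2.32 for tracheal genes. The ranking thus depended on the measure. Of 19 hemocyte genes 10 rose (against 13.3% of all genes tested) and none fell (median 3.20). Pxn, a peroxidasin secreted by hemocytes, had 519.8 and 294 CPM in baf GLKD, against 14.7 and 8.46 CPM in nosgal4 and 9.93 to 118 CPM in CS and yw (5.13 ± 1.07, adjusted p = 0.00396, and 0.0557 without nosgal4 replicate 2). Hml, a clotting protein and plasmatocyte marker, had 116 and 103 CPM in baf GLKD, against 8.14 and 4.03 CPM in nosgal4 and 3.52 to 42.5 CPM in CS and yw (4.16 ± 0.96, adjusted p = 0.00757, and 0.0812 without nosgal4 replicate 2). NimC4, a phagocytosis receptor of hemocytes and glia, had 101 and 134 CPM in baf GLKD, against 16.8 and 19.8 CPM in nosgal4 and 22.1 to 59.1 CPM in CS and yw (2.68 ± 0.40, adjusted p = 0.000385), and was called also without each of the 4 libraries. The crystal cell gene PPO1 was high in 1 library only, at 17.7 and 0.997 CPM in baf GLKD, against 0.441 and 0.133 CPM in nosgal4 (adjusted p = 0.055). The 10 calls became 4, 9, 5 and 1 when baf GLKD replicates 1 and 2 and nosgal4 replicates 1 and 2 were left out in turn. The summed level was 2893 and 3097 CPM in baf GLKD, against 978 and 434 CPM in nosgal4 and 547 to 1880 CPM in CS and yw.

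Among fat body genes 10 of 20 rose, against 13.3% of all genes tested, with none lower (median 2.13), and 8, 7, 5 and 3 without baf GLKD replicates 1 and 2 and nosgal4 replicates 1 and 2. Lsd-1, a perilipin of lipid droplets, had 37.3 and 39.2 CPM in baf GLKD, against 7.82 and 10.2 CPM in nosgal4 and 9.12 to 21.2 CPM in CS and yw (2.09 ± 0.40, adjusted p = 0.00226). Lsp1gamma, a storage protein of the larval fat body, had 42.9 and 76.1 CPM in baf GLKD, against 5.17 and 5.94 CPM in nosgal4 and 4.84 to 30.2 CPM in CS and yw (3.42 ± 0.71, adjusted p = 0.00396). Both were called also without each of the 4 libraries, and both baf GLKD libraries exceeded all 9 nosgal4, CS and yw libraries in 15 of the 20 genes, against 18% of all genes tested. The yolk protein gene Yp1, expressed in fat body and follicle cells, had 902 and 566 CPM in baf GLKD, against 123 and 148 CPM in nosgal4, and did not pass the test (2.44 ± 0.89, adjusted p = 0.0608). In all, the list summed to 6126 and 6034 CPM in baf GLKD, against 2303 and 2070 CPM in nosgal4 and 1498 to 3759 CPM in CS and yw.

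Markers of tissues next to the ovary did not share 1 pattern. Higher calls made up 13.3% of all genes tested. None of 40 digestive enzyme genes was called by edgeR or DESeq2 (1 had an unadjusted p under 0.05 in edgeR), in none did both baf GLKD libraries lie outside the 9 nosgal4, CS and yw libraries, and their sum followed the replicate and not the genotype, at 306 and 4.65 CPM in baf GLKD, against 288 and 1.60 CPM in nosgal4. Jon65Aiii, a gut protease, had 8.99 and 0.142 CPM in baf GLKD, against 19.1 and 0.133 CPM in nosgal4. Of 17 genes of the nervous system 5 rose and none fell (median 1.42), among them the synaptic vesicle gene nSyb at 1.78 and 3.99 CPM in baf GLKD, against 0.321 and 0.133 CPM in nosgal4 (adjusted p = 0.0058, and 0.0719 without nosgal4 replicate 2), while the pan-neuronal gene elav had 35.5 and 37.1 CPM in baf GLKD, against 25.5 and 13.2 CPM in nosgal4 (adjusted p = 0.134). The 5 calls became 4, 2, 2 and 1 without baf GLKD replicates 1 and 2 and nosgal4 replicates 1 and 2. Of 12 genes of the spermatheca and lower tract 2 rose, a share not far above the 13.3% of all genes tested. Oamb, an octopamine receptor of the oviduct, had 18.5 and 24.5 CPM in baf GLKD, against 4.25 and 3.63 CPM in nosgal4 (2.44 ± 0.30, adjusted p = 9.56e-05, called also without each of the 4 libraries). Send1, a protease of the spermatheca, had 38.9 and 32.1 CPM in baf GLKD, against 0 and 0 CPM in nosgal4, but up to 41.7 CPM in CS and yw, and did not pass the test (adjusted p = 0.091). The part that more attached tissue per library has in the rise of muscle, tracheal, blood and fat body genes was not tested.

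**Figure D5:**
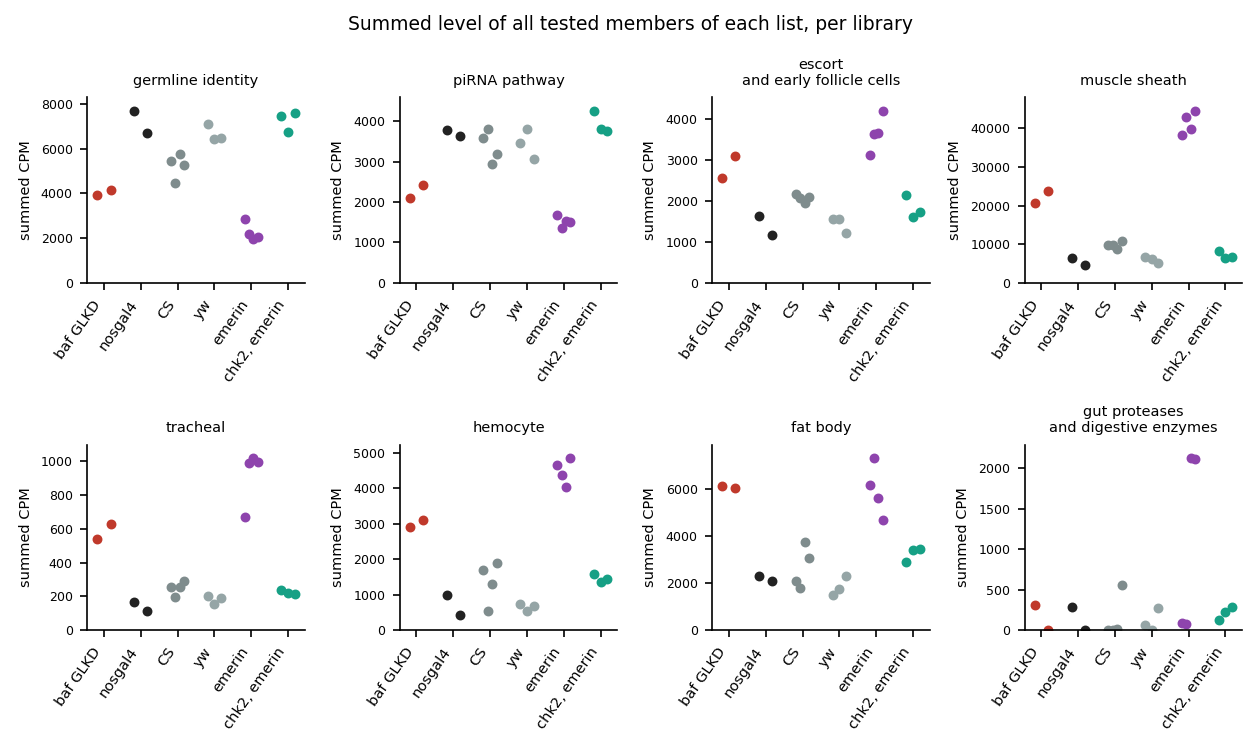
Summed level in CPM (vertical axes, from 0) of the tested members of 8 lists in each library of 6 groups, with 1 point per library. Muscle sheath and tracheal sums lie higher in baf GLKD than in nosgal4, CS and yw and below the emerin mutants, and the germline identity and piRNA sums lie in the reverse order.

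The matrix that surrounds ovarioles and attaches muscle rose in part. Its genes summed to 11721 and 12491 CPM in baf GLKD, against 9455 and 5008.5 CPM in nosgal4. Both baf GLKD sums lay within the 5196 to 14236 CPM of CS and yw. Of 17 basement membrane genes 9 rose and none fell (median 1.38), and 7, 5, 7 and 4 rose without baf GLKD replicates 1 and 2 and nosgal4 replicates 1 and 2. The genes that rose included both matrix metalloproteinases, with Mmp1 at 149 and 129 CPM in baf GLKD, against 39.1 and 19.9 CPM in nosgal4 (2.23 ± 0.38, adjusted p = 0.00105), and Mmp2 at 90.1 and 67.998 CPM in baf GLKD, against 20.7 and 16.9 CPM in nosgal4 (2.07 ± 0.38, adjusted p = 0.00165). Nidogen (Ndg) had 11.7 and 16.2 CPM in baf GLKD, against 3.57 and 3.63 CPM in nosgal4 (1.95 ± 0.39, adjusted p = 0.00328). All of these were called also without each of the 4 libraries. Collagen IV was different: Col4a1 had 2071 and 1405 CPM in baf GLKD, against 1337 and 358 CPM in nosgal4 and 404 to 2489.7 CPM in CS and yw (1.04 ± 0.77, adjusted p = 0.35), and vkg 1239 and 1005 CPM in baf GLKD, against 961 and 274 CPM in nosgal4 (adjusted p = 0.448).

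Among signalling pathways, Jun kinase (JNK) signalling, which responds to stress and wounding, had the most members called. The shares over all genes tested were 13.3% higher and 8.28% lower. Of 26 genes 13 rose and 2 fell (median 0.72), and 7, 7, 8 and 6 rose without baf GLKD replicates 1 and 2 and nosgal4 replicates 1 and 2. At the top of the pathway, the TNF ligand egr had 50.9 and 63.2 CPM in baf GLKD, against 13.2 and 14.8 CPM in nosgal4 and 11.9 to 26.4 CPM in CS and yw (2.02 ± 0.36, adjusted p = 0.00145), and its receptor grnd had 8.29 and 5.13 CPM in baf GLKD, against 1.44 and 0.62 CPM in nosgal4 (2.69 ± 0.49, adjusted p = 0.0016). Both were called also without each of the 4 libraries. Kinases and adaptors had 2 of 10 genes higher and 2 lower, with bsk, the JNK itself, at 39.4 and 43.5 CPM in baf GLKD, against 20.9 and 21.3 CPM in nosgal4 (0.98 ± 0.26, adjusted p = 0.0143, and 0.0765 to 0.0825 without 1 of the 4 libraries). The kinases slpr and wnd fell, by 1.00 and 0.97 on the log2 scale. Transcription factors and targets had 9 of 13 genes higher and none lower (median 1.14), but the list holds Mmp1, Mmp2 and Zasp52, which also stand on the matrix and muscle lists. The JNK list also shares members, among them egr and rpr, with the genes known to respond to p53 or irradiation. The feedback phosphatase puc rose by less, to 67.0 and 72.6 CPM in baf GLKD, against 50.6 and 43.6 CPM in nosgal4 (0.57 ± 0.18, adjusted p = 0.0376, and 0.075 to 0.226 without 1 of the 4 libraries).

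The other pathways had fewer members called. The shares over all genes tested were 13.3% higher and 8.28% lower. JAK/STAT genes summed to 1215 and 1283 CPM in baf GLKD, against 1042 and 808 CPM in nosgal4. CS and yw had 775 to 1203 CPM. As differences of log2(CPM + 0.5), the list median was 0.79 between the replicate 1 libraries and 0.53 between the replicate 2 libraries. Without baf GLKD replicate 1 the median log2 change of the JAK/STAT genes was 0.64. Of 20 JAK/STAT genes 8 rose and none fell (median 1.55), with 2, 4, 3 and 1 without baf GLKD replicates 1 and 2 and nosgal4 replicates 1 and 2. The inhibitory receptor et had 8.21 and 10.8 CPM in baf GLKD, against 1.93 and 1.77 CPM in nosgal4 (2.36 ± 0.47, adjusted p = 0.00336, called also without each of the 4 libraries), while the ligand upd2 was scarce, at 1.28 and 1.95 CPM in baf GLKD, against 0.12 and 0 CPM in nosgal4 (adjusted p = 0.0176, and 0.0562 and 0.131 without baf GLKD replicate 2 and nosgal4 replicate 2), and Stat92E, the transcription factor, had 236 and 241 CPM in baf GLKD, against 246 and 219 CPM in nosgal4. The stress peptide gene TotC was called from 1 library (adjusted p = 0.0241), at 8.18 and 0 CPM in baf GLKD and 0 CPM in both nosgal4 libraries, and without baf GLKD replicate 1 no reads were left to compare. In the BMP pathway, 4 of 16 genes rose and 1 fell, the activin receptor gene babo (median −0.11), with 3, 3, 4 and 1 higher without the same libraries. Beside dpp, the ligand gbb had 64.9 and 82.9 CPM in baf GLKD, against 28.4 and 22.3 CPM in nosgal4 (1.54 ± 0.35, adjusted p = 0.00627, and 0.0693 without nosgal4 replicate 2), and Dad, the inhibitory Smad that BMP signals induce, had 55.7 and 73.2 CPM in baf GLKD, against 26.9 and 17.5 CPM in nosgal4 and 16.7 to 33.3 CPM in CS and yw (1.53 ± 0.30, adjusted p = 0.0028, called also without each of the 4 libraries). The BMP receptors tkv, sax and put were not called, with log2 changes of −0.05, −0.16 and 0.03.

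Of 23 Notch pathway genes 5 rose and 1 fell (median 0.34), the one that fell being Delta, and the 5 became 3, 0, 0 and 1 without baf GLKD replicates 1 and 2 and nosgal4 replicates 1 and 2. The glycosyltransferase fng, which tunes the response of Notch to its ligands, had 56.9 and 87.0 CPM in baf GLKD, against 23.5 and 28.01 CPM in nosgal4 (1.48 ± 0.36, adjusted p = 0.00894, and 0.0833 and 0.0727 without baf GLKD replicate 2 and nosgal4 replicate 1). Of 26 Hedgehog and Wnt genes 6 rose and none fell (median 0.18), with 3, 2, 4 and 0 without the same 4 libraries in turn. They included the Hedgehog co-receptor boi (152 and 230.1 CPM in baf GLKD, against 66.6 and 43.6 CPM in nosgal4, adjusted p = 0.00414, and 0.0606 without nosgal4 replicate 2) and the Wnt receptor fz2 (266 and 255 CPM in baf GLKD, against 64.0 and 29.0 CPM in nosgal4, adjusted p = 0.00679, and 0.082 without nosgal4 replicate 2). The EGF receptor pathway had 1 of 21 genes higher, the neuregulin-like ligand vn, and 3 lower (median 0.10), and the ecdysone list 3 of 27 higher and none lower (median 0.51), a share below the 13.3% of all genes tested. The 3 included Cyp18a1, the enzyme that inactivates the hormone, at 35.4 and 54.6 CPM in baf GLKD, against 17.8 and 19.6 CPM in nosgal4 (1.26 ± 0.25, adjusted p = 0.00329, called also without each of the 4 libraries). In the insulin and TOR list, Thor, the 4E-BP that restrains translation, rose to 133 and 109 CPM in baf GLKD, against 36.0 and 38.8 CPM in nosgal4 and 44.1 to 107 CPM in CS and yw (1.70 ± 0.34, adjusted p = 0.00301, called also without each of the 4 libraries). In that list 2 of 20 genes fell, S6k and Tsc1 (median −0.36), a share near the 8.28% of all genes tested.

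The series also includes mutants of chk2, the checkpoint kinase encoded by lok that acts when DNA is damaged, and the transcripts of that pathway were lower more often than higher. The shares over all genes tested were 13.3% higher and 8.28% lower. Of 15 DNA damage checkpoint genes 6 fell and 1 rose (median −0.56), and 0, 0, 0 and 1 fell without baf GLKD replicates 1 and 2 and nosgal4 replicates 1 and 2. lok had 137 and 144 CPM in baf GLKD, against 246 and 286 CPM in nosgal4 and 194 to 247 CPM in CS and yw (−0.92 ± 0.27, adjusted p = 0.0251, and 0.0605 to 0.139 without 1 of the 4 libraries), and grp, the fly Chk1, had 146 and 153 CPM in baf GLKD, against 248 and 265 CPM in nosgal4 (−0.78 ± 0.20, adjusted p = 0.0143, and 0.0509 to 0.0871 without 1 of the 4 libraries). p53 was not called, at 14.7 and 15.5 CPM in baf GLKD, against 17.7 and 20.9 CPM in nosgal4 (−0.36 ± 0.26, adjusted p = 0.333). Members of the next list, among them egr and rpr, also stand on the JNK list, so the counts of the lists overlap. Of 13 genes known to respond to p53 or irradiation 4 rose and 1 fell (median 0.91; 3, 3, 3 and 1 rose without the same 4 libraries in turn). The cell death gene rpr had 2.98 and 3.23 CPM in baf GLKD, against 0.281 and 0.222 CPM in nosgal4 and 0.228 to 0.998 CPM in CS and yw (3.60 ± 0.75, adjusted p = 0.00406, and 0.0518 without nosgal4 replicate 2), and the stress transcription factor Xrp1 had 349 and 393 CPM in baf GLKD, against 134 and 114 CPM in nosgal4 (1.58 ± 0.34, adjusted p = 0.00502, and 0.0572 without nosgal4 replicate 2). hid, which acts beside rpr, had 17.7 and 21.2 CPM in baf GLKD, against 24.2 and 12.4 CPM in nosgal4 (0.08 ± 0.45). Among caspases, Dcp-1 fell to 55.2 and 55.8 CPM in baf GLKD, against 114 and 109 CPM in nosgal4 (−1.01 ± 0.29, adjusted p = 0.0216, and 0.079 to 0.111 without 1 of the 4 libraries), and Drice had 48.7 and 51.7 CPM in baf GLKD, against 41.6 and 41.5 CPM in nosgal4 (adjusted p = 0.138).

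Partners of BAF at the nuclear envelope were mostly not called. Their share called lower was not far above the 8.28% of all genes tested. Of 18 genes of the lamina and its BAF partners 2 fell and none rose (median −0.28), and 0, 0, 0 and 1 without baf GLKD replicates 1 and 2 and nosgal4 replicates 1 and 2. tws, a regulatory subunit of the phosphatase that brings BAF back to chromatin after mitosis, had 187 and 190.4 CPM in baf GLKD, against 312 and 276 CPM in nosgal4 (−0.64 ± 0.16, adjusted p = 0.0122, and 0.0625 to 0.0863 without baf GLKD replicate 1, baf GLKD replicate 2 or nosgal4 replicate 1). The other gene that fell was the LEM-domain gene MAN1 (−0.77 ± 0.25, adjusted p = 0.037). It had 79.7 and 84.1 CPM in baf GLKD, against 147 and 132 CPM in nosgal4. Both baf GLKD values lay within the 73.9 to 132 CPM of CS and yw. With 1 of the 4 libraries left out the change of MAN1 was −0.84 to −0.69, and each time the call ended. ball, the kinase that releases BAF from chromatin, had 59.0 and 59.2 CPM in baf GLKD, against 81.1 and 79.5 CPM in nosgal4 (−0.44 ± 0.19, adjusted p = 0.1). The lamins gave −0.32 ± 0.34 for Lam (B-type, adjusted p = 0.53) and 0.26 ± 0.19 for LamC (A-type, adjusted p = 0.343), and Ote, which encodes emerin, stood at 39.1 and 56.5 CPM in baf GLKD, against 61.5 and 82.1 CPM in nosgal4 (−0.59 ± 0.47, adjusted p = 0.389).

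Some defence genes rose, in uneven steps. Among all genes tested, 13.3% were higher. Antimicrobial peptides and induced immune molecules belong to pathways the study chose on these samples, and 7 of 35 rose with none lower (median 1.99; 2, 5, 2 and 3 without baf GLKD replicates 1 and 2 and nosgal4 replicates 1 and 2). The antifungal peptide gene Drs had 325 and 94.1 CPM in baf GLKD, against 6.78 and 11.7 CPM in nosgal4 and 10.9 to 73.5 CPM in CS and yw (4.50 ± 0.90, adjusted p = 0.00327, called also without each of the 4 libraries), and its paralog Drsl5 had 20.8 and 23.8 CPM in baf GLKD, against 0.281 and 0.753 CPM in nosgal4 (5.42 ± 1.26, adjusted p = 0.00783, and 0.0731 without nosgal4 replicate 1). Def was high in 1 baf GLKD library, at 21.9 and 0.427 CPM in baf GLKD, against 0.201 and 0.0443 CPM in nosgal4. The list summed to 1002 and 474 CPM in baf GLKD, against 121 and 132 CPM in nosgal4 and 130 to 642 CPM in CS and yw, so baf GLKD replicate 2 lay inside the wild-type range. As differences of log2(CPM + 0.5), its median was 2.07 between the replicate 1 libraries and 0.73 between the replicate 2 libraries. Of 24 serpins, which inhibit the proteases of such cascades, 7 rose and none fell (median 0.94; 5, 6, 5 and 6 without the same 4 libraries), among them Spn27A, an inhibitor upstream of Toll, at 100.3 and 113 CPM in baf GLKD, against 50.5 and 49.6 CPM in nosgal4 (1.09 ± 0.17, adjusted p = 0.000518, called also without each of the 4 libraries).

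Cytochrome P450 genes, which oxidize hormones, lipids and toxins, had more members called than any other of the 54 lists. Of 81 genes 35 rose and 1 fell (median 1.65), and 15 of the 35 were called also without each of the 4 libraries (18, 34, 21 and 18 rose without baf GLKD replicates 1 and 2 and nosgal4 replicates 1 and 2). Cyp318a1 had 116 and 141 CPM in baf GLKD, against 28.8 and 29.2 CPM in nosgal4 and 30.1 to 54.0 CPM in CS and yw (2.15 ± 0.25, adjusted p = 6.53e-05). Cyp4g1, the oenocyte enzyme that makes cuticular hydrocarbons, was the most abundant of those named here, at 1332 and 1537 CPM in baf GLKD, against 388 and 300.1 CPM in nosgal4 and 103 to 436 CPM in CS and yw (2.06 ± 0.49, adjusted p = 0.00854, and 0.082 without nosgal4 replicate 2). Cyp6v1 was the gene that fell (58.4 and 57.6 CPM in baf GLKD, against 134 and 113 CPM in nosgal4, adjusted p = 0.0399, and 0.093 to 0.156 without 1 of the 4 libraries). The P450 genes summed to 2774 and 2748 CPM in baf GLKD, against 1081 and 947 CPM in nosgal4 and 755 to 1175 CPM in CS and yw, so both baf GLKD libraries were well outside the range of the other 9. Of 33 UDP-glycosyltransferases 9 rose and 1 fell, and the 9 became 5, 9, 6 and 5 without baf GLKD replicates 1 and 2 and nosgal4 replicates 1 and 2. Their median was 1.45, and 0.00 without baf GLKD replicate 1. Of 33 glutathione transferases and related detoxification genes 5 rose (median 0.23), a share near the 13.3% of all genes tested, and the 5 became 0, 2, 0 and 1 without the same libraries. Of 80 cuticle proteins 14 rose and none fell, a share not far above the 13.3% of all genes tested. At most 3 counts in each nosgal4 library were found for 35 of the 80. The cuticle count fell to 2, 10, 2 and 1 without baf GLKD replicates 1 and 2 and nosgal4 replicates 1 and 2.

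The most abundant transcripts that changed were of mixed kinds. Among the called genes with the highest TPM, Hsp83, the cytosolic Hsp90 stored in oocytes, fell to 3604 and 4689 CPM in baf GLKD, against 8642 and 7112 CPM in nosgal4 and 3706 to 6959 CPM in CS and yw (−0.93 ± 0.28, adjusted p = 0.0292, and 0.0515 to 0.187 without 1 of the 4 libraries), and the baf GLKD and wild-type ranges overlapped. stv, the BAG-domain partner of Hsp70 at muscle Z-discs, rose to 235 and 349.6 CPM in baf GLKD, against 71.6 and 45.8 CPM in nosgal4 (2.31 ± 0.37, adjusted p = 0.000608, called also without each of the 4 libraries). CG7443, for which no role is given here, had 810.1 and 1347 CPM in baf GLKD, against 120.1 and 204 CPM in nosgal4 and 192 to 390.0 CPM in CS and yw (2.73 ± 0.39, adjusted p = 0.000287, called also without each of the 4 libraries). MtnA, a metallothionein that binds heavy metals, had 690.2 and 327 CPM in baf GLKD, against 62.4 and 64.7 CPM in nosgal4 and 94.3 to 364 CPM in CS and yw (3.00 ± 0.68, adjusted p = 0.00669, and 0.0563 to 0.068 without baf GLKD replicate 1, nosgal4 replicate 1 or nosgal4 replicate 2). CG43134 differed widely between the baf GLKD replicates, at 1964 and 63.3 CPM in baf GLKD, against 3.17 and 15.4 CPM in nosgal4 and 4.38 to 174 CPM in CS and yw, and its call ended without baf GLKD replicate 1 (adjusted p = 0.385). Among the largest falls, Imp, an mRNA-binding protein of germ cells and neuroblasts, had 139 and 246 CPM in baf GLKD, against 733 and 482 CPM in nosgal4 and 327 to 682 CPM in CS and yw (−1.66 ± 0.42, adjusted p = 0.0123, and 0.132 and 0.0916 without baf GLKD replicate 1 and nosgal4 replicate 1).

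Some genes were at the floor in driver ovaries, defined as at most 3 counts in each nosgal4 library. There were 2131 such genes among those tested, and 135 were called higher, a smaller share than the 13.3% of all genes tested, while 923 were at the floor in baf GLKD and 1 was called lower, CG12680, with 0 counts in both baf GLKD libraries, against 8 and 6 in the nosgal4 libraries. The case of Alp8, an alkaline phosphatase, shows how far a call can rest on 1 library: it had 724 and 1 counts in baf GLKD, against 2 and 0 in nosgal4, a ratio of 367 with a 95% counting interval of 101 to 3039, and no difference was called without baf GLKD replicate 1 (adjusted p = 1). The interval covers counting error only. Yolk, vitelline membrane and chorion genes, which belong to later stages of oogenesis, had 2 of 27 higher and none lower, a share below the 13.3% of all genes tested (0, 6, 1 and 1 without baf GLKD replicates 1 and 2 and nosgal4 replicates 1 and 2). Their median was 2.89, and 0.24 without baf GLKD replicate 1. The eggshell gene dec had 196 and 73.7 CPM in baf GLKD, against 40.2 and 33.1 CPM in nosgal4 (1.88 ± 0.37, adjusted p = 0.00279, and 0.0931 without baf GLKD replicate 1), and the chorion gene Cp16 had 52.8 and 0.57 CPM in baf GLKD, against 0 and 0.133 CPM in nosgal4 (adjusted p = 0.0576). In both the baf GLKD replicate 1 library was the high one.

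Called genes lay on all chromosome arms. The share of genes called higher was 13.8% on 2L, 13.5% on 2R, 13.1% on 3L, 14.2% on 3R, 16.7% on chromosome 4 (14 of 84 genes) and 10.9% on X, against 13.3% of all genes tested, and the share called lower was 2.38% on chromosome 4 and 7.64% to 9.22% elsewhere. No test of these shares was made.

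The change in baf GLKD was also set against that of the emerin mutants, a comparison that shares no library with it (4 emerin against 7 CS and yw libraries). The difference of the 2 changes passed the test for 6 of 12762 genes, more positive in baf GLKD for 4 (0.0313%) and more negative for 2 (0.0157%), while 997 genes had an unadjusted p under 0.05, and DESeq2 called 61 and 70 genes. CG2233 gave the largest of the 6 differences, 6.77 on the log2 scale. It had 46.1 and 26.8 CPM in baf GLKD, against 0.481 and 0 CPM in nosgal4, while it had 46.4 to 67.3 CPM in the emerin mutants, against 19.9 to 85.5 CPM in CS and yw, so the nosgal4 libraries were the ones that stood apart. Ncc69, a sodium, potassium and chloride cotransporter, rose in both: it had 247 and 301 CPM in baf GLKD, against 89.7 and 91.2 CPM in nosgal4, and 424 to 548 CPM in the emerin mutants, against 65.4 to 85.6 CPM in CS and yw, and the difference of the changes was −1.11.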

How the data were processed

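Polyadenylated RNA of hand-dissected ovaries was sequenced by the authors, who trimmed the reads (Trim Galore 0.6.6 per the submitters' processing notes), quantified them with kallisto 0.46.1 against transcripts of the BDGP6.32 (dm6) build, and used tximeta to join transcripts into genes. Deposited values per gene are the resulting estimated counts, not normalized by the authors. The deposited transcript tables hold, per library, effective length, estimated counts and TPM as kallisto gave them.

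Estimated counts were rounded to whole numbers, genes under 10 counts over 18 libraries were left out, and edgeR 4.0.16 (R 4.3.3) was fitted with TMM factors, glmQLFit and glmQLFTest over 5 groups (baf GLKD, nosgal4, emerin, chk2, emerin and wild type, the last being CS and yw together). DESeq2 1.42.0 was an alternative. Columns were matched to samples by name, and none was left unused. The G/PK columns were matched to their group only, since their numbers differ from the replicate numbers of the sample titles. The fit was also run on simulated counts with known changes in baf GLKD alone. The other groups differ in these data, so that run does not test the calls made here. Gene symbols came from the Ensembl BDGP6.54 annotation, which named 14194 of 14237 genes. Alternatives covered the normalization, the filter, the test, the libraries and groups in the fit, the replicate number, gene length, the counting and each library left out in turn.

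Named genes were baf, the 8 highest and 8 lowest changes among called genes of at least 5 CPM whose libraries did not overlap, the 8 called genes of highest TPM in each direction, up to 5 genes in each direction at the floor of 3 counts, genes whose change differed from that in emerin, up to 4 called genes of each list by adjusted p, and all members of lists of 6 or fewer. Other genes are list members named after their values were seen. The members and the 54 lists were chosen with earlier results of these data known, and 4 symbols (nanos, Delta, mTor and phtm) were updated to the current annotation after values were seen. Intervals and floors cover counting error only. Sequences are not shown, and promoter motifs were not analysed here.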

Additional observations from a re-analysis of the deposited data

Results flagged for a closer look

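The 6 genes below were singled out because the change in baf GLKD over nosgal4 differed from the change in emerin over CS and yw in the same edgeR fit (adjusted p under 0.05 for the difference). No explanation was tested.

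CG2233 had a difference of 6.77 on the log2 scale, with 46.1 and 26.8 CPM in baf GLKD, against 0.481 and 0 CPM in nosgal4, and 46.4 to 67.3 CPM in emerin, against 19.9 to 85.5 CPM in CS and yw. CG3036 had a difference of 1.77, with 41.8 and 47.2 CPM in baf GLKD, against 15.1 and 12.3 CPM in nosgal4, and 36.2 to 42.3 CPM in emerin, against 33.9 to 43.5 CPM in CS and yw. CG6325 had a difference of 1.60, with 23.5 and 22.3 CPM in baf GLKD, against 12.2 and 13.2 CPM in nosgal4, and 20.5 to 24.4 CPM in emerin, against 30.8 to 44.8 CPM in CS and yw. In these 3 genes the nosgal4 libraries lay below all 7 CS and yw libraries, and both baf GLKD libraries lay within the CS and yw range for CG2233, 1 of 2 for CG3036 and neither for CG6325.

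CG32625 had a difference of 1.71, with 18.1 and 20.1 CPM in baf GLKD, against 22.3 and 28.8 CPM in nosgal4, and 6.56 to 9.44 CPM in emerin, against 28.3 to 46.1 CPM in CS and yw. Dph1, an enzyme of diphthamide synthesis, had a difference of −1.36, with 32.8 and 24.8 CPM in baf GLKD, against 39.8 and 43.8 CPM in nosgal4, and 68.7 to 77.1 CPM in emerin, against 32.2 to 48.4 CPM in CS and yw. Ncc69 had a difference of −1.105, with 247 and 301 CPM in baf GLKD, against 89.7 and 91.2 CPM in nosgal4, and 424 to 548 CPM in emerin, against 65.4 to 85.6 CPM in CS and yw.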

How the results depend on the processing

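The counts of 1692 higher and 1057 lower genes stayed within 1.5 times under DESeq2 (2210 and 1149), RLE factors (1748 and 750), filterByExpr (1755 and 1027), no filter (1632 and 965), only the 4 compared libraries (1458 and 1007), 7 separate groups (2057 and 1516), a library set term (1716 and 1135), counts from the transcript tables (1560 and 911) and removal of the length trend (2076 and 962). They moved further at an adjusted p under 0.01 (859 and 216), for the lower genes with library size alone (444) and with at least a 2-fold change (172), and with single libraries left out (623 to 1812 higher, 82 to 1317 lower). The causes of these shifts were not tested, except that the stricter thresholds select among the same calls. The replicate numbers are not said to pair samples, although the deviations of the replicate 1 libraries of baf GLKD and nosgal4 correlated at 0.496 over 7806 genes, and the fit with the replicate block gave 1650 higher and 970 lower genes. Genes whose change differed from that in emerin numbered 4 more positive and 2 more negative, against 61 and 70 with DESeq2, 69 and 49 with 7 groups, and 5 and 5 with the length trend removed. The change of baf was −0.45 with the length trend removed and passed the test there (adjusted p = 0.0163 in edgeR).

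Of 5972 comparisons of a named gene with an alternative, 5422 kept direction and side of the threshold, 525 lost the call, 15 gained one and 10 reversed. TotC ranged from 0.00 to 10.5 with 1 library left out, since its reads in baf GLKD came from replicate 1. The other 9 reversals were of sc, never called, at −0.0175 with only the 4 compared libraries and −0.141 to 0.112 with 1 library left out. Of 1566 list medians, 198 moved by more than the spread between the 2 library sets. Planned promoter motif shares were not run, as no sequence was analysed here.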

Other observations

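The white gene w, mutated in the background of the driver stock, had 91.8 and 120.4 CPM in baf GLKD, against 253 and 262 CPM in nosgal4, 1.23 to 22.8 CPM in CS and yw, and 1.99 to 70.8 CPM in the emerin mutants (edgeR log2 change −1.28, adjusted p = 0.494). Both baf GLKD and both nosgal4 libraries had higher w levels than every CS, yw and emerin library. The study also gives a w mutation for the yw strain and a yw background for the emerin alleles. Mutant w was thus not particular to the driver and knockdown libraries. Among the other genes mutated in the responder stock, v had 2.29 and 2.85 CPM in baf GLKD, against 0.201 and 0.222 CPM in nosgal4 and 0.159 to 1.47 CPM in CS and yw (adjusted p = 0.0597), y had 0.581 and 0.76 CPM in baf GLKD, against 0.0401 and 0.0443 CPM in nosgal4 (adjusted p = 0.0597), and sev had 18.4 and 21.2 CPM in baf GLKD, against 11.5 and 5.41 CPM in nosgal4 (adjusted p = 0.212). None of these passed the test.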
